A study of Mus musculus with 6 samples.

Results

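The transcripts of 10 endothelial and angiogenesis genes were followed in brown adipose tissue (BAT) that lacks LETMD1, a mitochondrial protein. The genes were taken by symbol, from a choice made with earlier results of these data known, and all 10 were found among the 23282 gene rows. They comprised 5 pan-endothelial genes (Pecam1, Cdh5, Kdr, Flt1 and Tek), the ligands Vegfa and Vegfb, the hypoxia-inducible factors Hif1a and Epas1, and the vasoactive peptide gene Adm. RNA came from the BAT of 3 wild-type and 3 Letmd1 KO mice, all male, 5 weeks old and on the C57BL/6N background. The KO mice were homozygous, in every tissue, for a knockout-first allele with a reporter and selection cassette in an early intron of Letmd1, and the line was derived from an embryonic stem cell clone. No agent was given to either genotype, and each library came from a single mouse.

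BAT burns fuel to make heat, and its capillary bed delivers the oxygen, fatty acids and glucose that this takes. Vascular endothelial growth factor A (VEGFA), which brown adipocytes secrete, binds the receptor KDR on endothelial cells and drives sprouting and survival of capillaries. FLT1 binds VEGFA and VEGFB and acts largely as a trap for VEGFA, and TEK is the receptor of the angiopoietins. When oxygen is short, prolyl hydroxylases stop marking HIF1A and EPAS1 (also known as HIF-2α) for breakdown, and both then switch on target genes, among them Vegfa and Adm. That step acts on the proteins, so transcript levels of Hif1a and Epas1 do not measure HIF activity.

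QuantSeq libraries, which sample mRNAs at their 3′ ends, held between 6669577 and 14574273 counts per mouse. Levels are given as CPM, a count divided by the size of its library, after TMM scaling. TMM sets libraries to a common level through genes that differ little between them. They compare mice within a gene and do not rank different genes. Fold changes are log2 values of Letmd1 KO over wild type from edgeR's quasi-likelihood test, with p-values adjusted over all 12995 genes tested and a threshold of 0.05. Letmd1 itself was counted 5658, 6490 and 5266 times in wild-type BAT but only 0, 0 and 1 times in KO BAT. The TMM factors differed by genotype, between 0.852 and 0.886 in wild-type mice and between 1.13 and 1.17 in KO mice. Over all genes, the median log2 value was therefore 0.03 with TMM but 0.45 with library size alone, and each result is read against that shift.

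The tissue makeup also differed. The 10 brown adipocyte markers summed to between 16120 and 17810 CPM in wild-type mice and between 3961 and 4446 in KO mice, with 8 of 10 lower. All 11 macrophage markers were higher, with sums of 172 to 239 CPM in wild-type and 1360 to 3240 CPM in KO mice. The lysosomal glycoprotein gene Gpnmb led them, with a log2 fold change of 7.03 (SE 1.34). That value rests largely on KO mouse 2, since Gpnmb had 63.1, 1014 and 41.0 CPM in KO mice 1, 2 and 3. All 8 fibroblast and progenitor markers and all 6 Schwann cell markers were higher as well. Their sums went from between 1383 and 1919 CPM to between 3901 and 6702 CPM, and from between 47.3 and 82.8 CPM to between 154 and 238 CPM. Lum and Mal led these lists, with log2 fold changes of 2.41 and 3.71, and Elovl3 led the brown adipocyte markers that fell, with -4.74. Skeletal muscle markers summed to between 5.87 and 360 CPM in wild-type and between 264 and 1077 CPM in KO mice. Of the 10, Myh2 alone was called higher (3.15), a call lost without wild-type mouse 1 or 3 or KO mouse 1 or 3, and Ckm, Myh4, Myh2, Tnnt3 and Pvalb had no counts in wild-type mice 1 and 3 (these genes other than Myh2 were picked out after their values were seen). The 8 red blood cell markers had no call. The part of these shifts in the results that follow was not tested. In bulk RNA, fewer cells of a type and less RNA per cell cannot be told apart.

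Of the 10 genes, 7 were lower and 1 was higher in Letmd1 KO BAT, and 2 did not pass the test. Among all genes tested, 22.3% were lower and 23.7% were higher. The 3 KO values did not overlap the wild-type values in the same 8 genes, again 7 lower and 1 higher, where 27.2% and 30.1% of all genes separated in these directions. With library size alone, 3 of the 10 were lower (10.5% of all genes) and 3 were higher (45.4%). Kdr, Vegfb and Epas1 fell and Adm rose with TMM, with library size alone and with every other scaling and test that was tried.

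**Figure D1:**
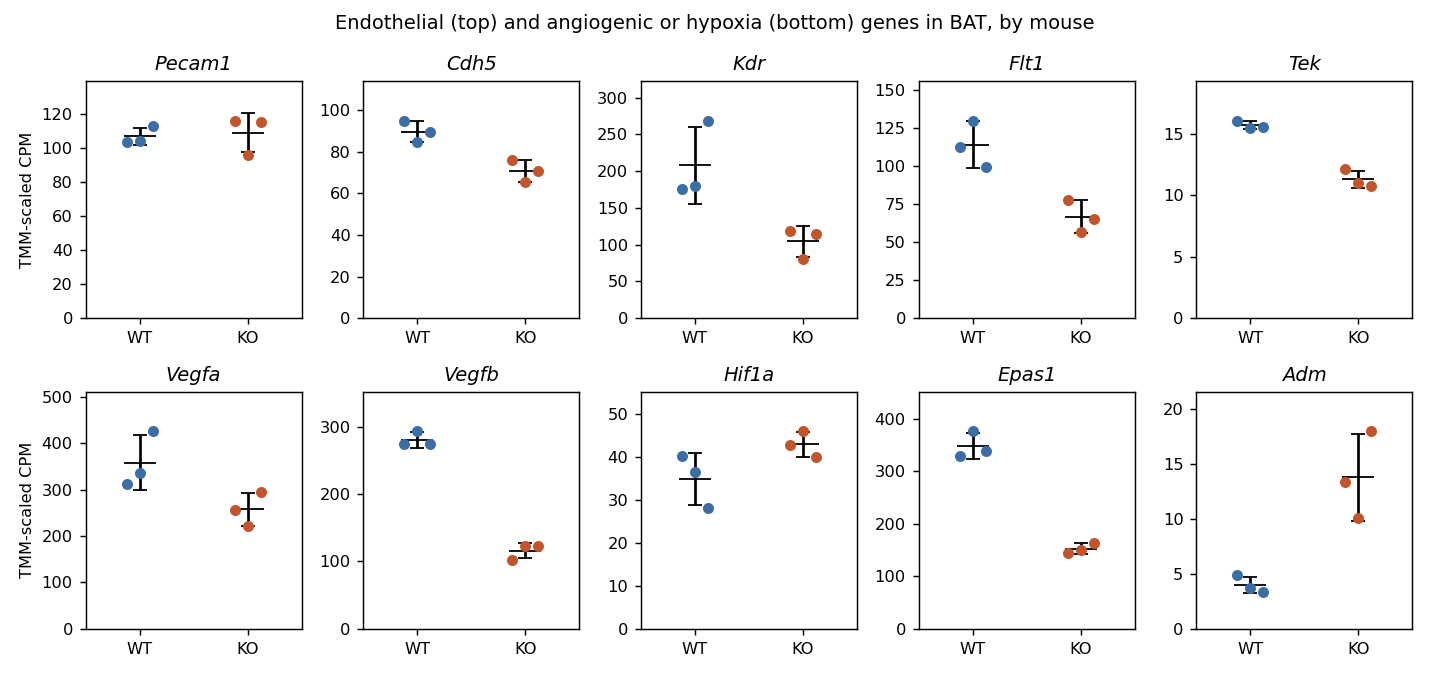
Each panel plots TMM-scaled CPM of 1 gene on a linear axis from 0, with a point for each mouse, a dash for the mean and bars for the SD (n = 3 wild-type, WT, and 3 Letmd1 KO mice). The genotypes overlap for Pecam1 and Hif1a and separate for the other 8 genes, with Adm the only gene of the 10 whose KO values all lie above the wild-type values.

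Promoters are shown for the VEGF genes, Kdr and Adm, the ligand, receptor and hypoxia genes on which the results turn. They are the 250 bases before the RefSeq start of transcription (GRCm38.p6), written 5′ to 3′ on the gene's strand, with the HIF core motif (ACGTG or GCGTG, either strand) in capitals. Of 32851 such windows in the mouse genome, 38.6% hold that motif. Kdr (chr5:75978456-75978705, minus strand), Vegfb (chr19:6987652-6987901, minus strand) and Adm (chr7:110627407-110627656, plus strand) have 2 matches each, and Vegfa (chr17:46032378-46032627, minus strand) has 0 in the window before its first start. A second Vegfa window, before an internal start (chr17:46025164-46025413), has 2 matches and is not printed. A match is a string of letters and not a site of binding. Of the windows not printed, that of Tek has 0 matches and that of Flt1 has 1, so genes called lower are found with and without the motif. That of Hif1a has 3 matches, of which 2 are the same stretch CACGTG read once on each strand.
Kdr: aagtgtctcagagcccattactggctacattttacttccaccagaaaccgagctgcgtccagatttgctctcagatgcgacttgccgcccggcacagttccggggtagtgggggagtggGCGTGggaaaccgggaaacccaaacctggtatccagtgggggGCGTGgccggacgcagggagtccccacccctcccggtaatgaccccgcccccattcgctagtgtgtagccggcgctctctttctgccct
Vegfb: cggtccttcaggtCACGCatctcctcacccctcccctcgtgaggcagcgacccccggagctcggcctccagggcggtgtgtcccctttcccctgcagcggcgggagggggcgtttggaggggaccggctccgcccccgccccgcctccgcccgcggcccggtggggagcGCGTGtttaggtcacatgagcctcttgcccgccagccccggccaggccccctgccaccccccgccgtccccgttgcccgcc
Adm: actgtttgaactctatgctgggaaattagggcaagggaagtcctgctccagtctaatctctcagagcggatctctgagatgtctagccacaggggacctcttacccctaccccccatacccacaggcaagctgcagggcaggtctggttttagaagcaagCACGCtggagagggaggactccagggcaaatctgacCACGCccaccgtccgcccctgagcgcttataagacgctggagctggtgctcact
Vegfa: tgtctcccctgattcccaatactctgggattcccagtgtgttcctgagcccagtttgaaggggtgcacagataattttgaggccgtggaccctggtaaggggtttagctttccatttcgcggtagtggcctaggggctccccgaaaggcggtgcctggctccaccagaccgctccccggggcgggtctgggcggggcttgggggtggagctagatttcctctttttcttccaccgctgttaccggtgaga

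Pecam1 (chr11:106654217-106750628, minus strand, GRCm38 here and for the genes that follow) encodes CD31, the adhesion molecule at endothelial junctions that is the usual stain for vessels. It had 104, 105 and 113 CPM in wild-type BAT and 116, 95.9 and 115 CPM in Letmd1 KO BAT. The ranges overlapped, and the means were 107 ± 5.14 and 109 ± 11.5 CPM (SD, n = 3). The log2 fold change was 0.03 (SE 0.11, adjusted p = 0.851), with a 95% interval from -0.22 to 0.28. With library size alone it was 0.45 (adjusted p = 0.00978), the same as the median of all genes under that scaling. In this bulk RNA the cells that Pecam1 reads came from were not parted, and all 11 macrophage markers were higher. The part of cells other than endothelial cells in its level was not tested.

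Cdh5 (chr8:104101625-104144511, plus strand), which encodes the VE-cadherin of adherens junctions, had 94.97, 84.6 and 89.6 CPM in wild-type mice and 76.2, 65.6 and 70.9 CPM in KO mice. All KO values lay below the wild-type values, with means of 70.9 ± 5.26 and 89.7 ± 5.19 CPM (SD, n = 3), and the log2 fold change was -0.34 (SE 0.11, adjusted p = 0.0277). The call depended on the scaling, since the log2 fold change was 0.08 (adjusted p = 0.546) with library size alone. It was also lost without wild-type mouse 1 (adjusted p = 0.0889), KO mouse 2 (0.0762) or KO mouse 3 (0.0707).

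Kdr (chr5:75932827-75978458, minus strand) encodes VEGF receptor 2, the main signalling receptor for VEGFA. Its wild-type levels were 175, 180 and 269 CPM, and its KO levels were 118, 80.3 and 115 CPM. Wild-type mouse 3 stood above the other two, and every KO mouse lay below every wild-type mouse. The mean fell from 208 ± 52.7 to 104 ± 20.9 CPM (SD, n = 3), a log2 fold change of -0.99 (SE 0.20, adjusted p = 0.0032). It was -0.57 (adjusted p = 0.0352) with library size alone.

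Flt1 (chr5:147561604-147726011, minus strand) encodes VEGF receptor 1, and its soluble splice form shares the gene row here, so the forms were not parted. It had 113, 130 and 99.2 CPM in wild-type mice and 78.1, 56.6 and 65.3 CPM in KO mice, with no overlap. The mean fell from 114 ± 15.5 to 66.7 ± 10.8 CPM (SD, n = 3), with a log2 fold change of -0.77 (SE 0.15, adjusted p = 0.00245). The value with library size alone was -0.35 (adjusted p = 0.0839), below zero but past no threshold.

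Tek (chr4:94739289-94874976, plus strand), the gene of the angiopoietin receptor TIE2, was the least counted of the pan-endothelial genes, with 83 to 183 counts per mouse. It had 16.1, 15.5 and 15.5 CPM in wild-type mice and 12.1, 10.98 and 10.8 CPM in KO mice. The groups were separate, at 15.7 ± 0.33 and 11.3 ± 0.71 CPM (SD, n = 3), and the log2 fold change was -0.48 (SE 0.16, adjusted p = 0.0343). This call was lost with library size alone (-0.06, adjusted p = 0.785) and when any mouse other than wild-type mouse 3 was left out (adjusted p between 0.0536 and 0.104).

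The pan-endothelial genes thus did not move by the same amount. Within a mouse, the ratio of 2 genes does not depend on how libraries are scaled. The log2 ratio of Kdr to Pecam1 was 0.76, 0.78 and 1.25 in wild-type mice and 0.02, -0.26 and -0.01 in KO mice. That of Flt1 to Pecam1 was 0.12, 0.31 and -0.19, and then -0.57, -0.76 and -0.82. In both, the KO ratios lay below the wild-type ratios, by 1.01 and 0.80 on average. The mean ratios of Tek and of Cdh5 to Pecam1 were lower by smaller amounts, with differences of -0.50 and -0.36 and no overlap. The ratio of Kdr to Flt1 overlapped between the genotypes (0.85 ± 0.52 and 0.64 ± 0.16, SD, n = 3).

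Vegfa (chr17:46016993-46032369, minus strand) had 312, 336 and 425 CPM in wild-type BAT and 256, 222 and 294 CPM in Letmd1 KO BAT. The highest KO mouse was just below the lowest wild-type mouse. The mean fell from 358 ± 59.6 to 257 ± 36.1 CPM (SD, n = 3), a log2 fold change of -0.47 (SE 0.15, adjusted p = 0.0285). The call was lost with library size alone (-0.05, adjusted p = 0.793), with quantile normalization (-0.15, adjusted p = 0.444), and without wild-type mouse 3 (adjusted p = 0.0845), KO mouse 1 (0.0812) or KO mouse 2 (0.0714). Splice forms of Vegfa were not parted.

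Vegfb (chr19:6982473-6987651, minus strand), whose product binds FLT1 and not KDR and has been tied to endothelial fatty acid uptake, changed more. It had 274, 293 and 274 CPM in wild-type mice and 103, 123 and 122 CPM in KO mice. The genotypes were far apart relative to the spread within each, at 280 ± 11.2 and 116 ± 11.4 CPM (SD, n = 3). The log2 fold change was -1.27 (SE 0.11, adjusted p = 2.96e-05), and -0.85 (adjusted p = 0.000244) with library size alone.

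Epas1 (chr17:86753700-86833410, plus strand) encodes HIF-2α, which is abundant in endothelial cells and in brown adipocytes. It had 329, 376 and 338 CPM in wild-type mice and 144, 151 and 164 CPM in KO mice, a clear separation. The mean fell from 348 ± 25.0 to 153 ± 10.3 CPM (SD, n = 3), with a log2 fold change of -1.18 (SE 0.11, adjusted p = 3.95e-05), and -0.76 (adjusted p = 0.000503) with library size alone.

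Hif1a (chr12:73901375-73947530, plus strand) did not follow Epas1. It had 40.1, 36.4 and 28.2 CPM in wild-type mice and 42.7, 45.9 and 39.99 CPM in KO mice, and the ranges overlapped narrowly. Its means were 34.9 ± 6.11 and 42.9 ± 2.97 CPM (SD, n = 3). The log2 fold change was 0.29 (SE 0.15, adjusted p = 0.144), with a 95% interval from -0.05 to 0.64. With library size alone it was 0.71 (adjusted p = 0.00381). The end of Hif1a overlaps an antisense gene and a second gene on its own strand, and the use of strand in counting is not given in the sources used here, so reads of these genes cannot be told apart. The log2 ratio of Epas1 to Hif1a was 3.04, 3.37 and 3.58 in wild-type mice and 1.75, 1.71 and 2.04 in KO mice, a mean difference of -1.50 with no overlap.

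Adm (chr7:110627661-110629820, plus strand) encodes adrenomedullin, a vasodilator peptide that hypoxia induces. Its reads numbered 45, 35 and 26 in wild-type BAT against 121, 76 and 305 in KO BAT, which gave 4.85, 3.71 and 3.39 CPM and 13.3, 10.06 and 17.9 CPM. Each KO mouse stood well above each wild-type mouse. The mean rose from 3.98 ± 0.77 to 13.8 ± 3.96 CPM (SD, n = 3), a log2 fold change of 1.79 (SE 0.28, adjusted p = 0.000727). It was 2.22 (adjusted p = 0.000186) with library size alone. An antisense gene overlaps the end of Adm, with the same limit on strand.

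**Figure D2:**
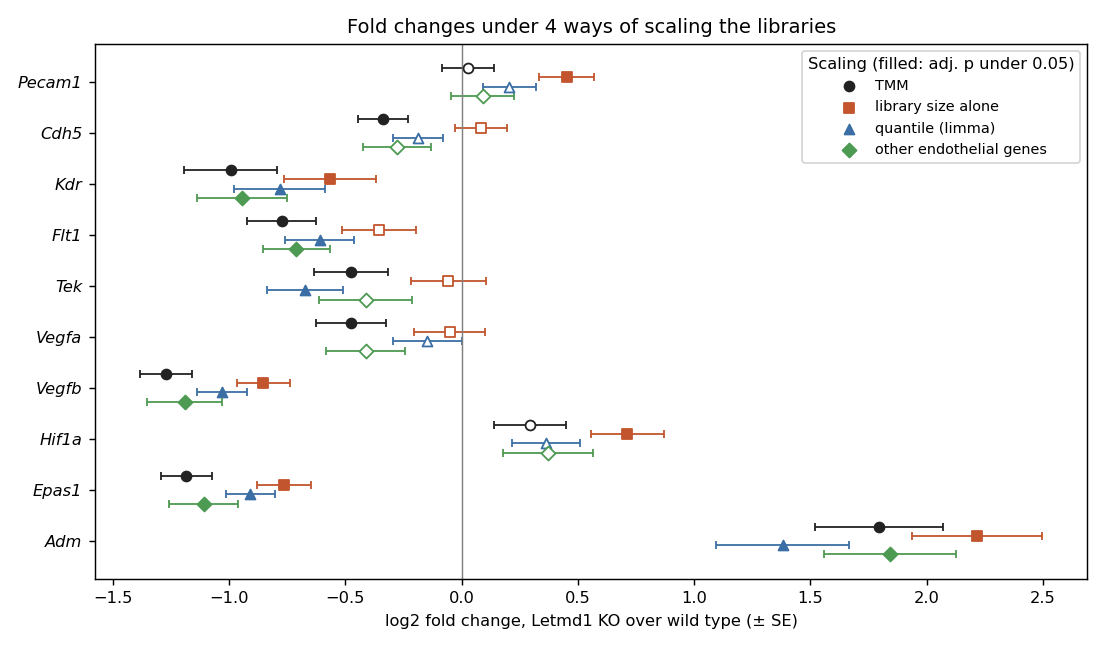
Log2 fold changes of Letmd1 KO over wild type (horizontal axis, with SE bars) are plotted for the 10 genes under TMM, library size alone, quantile normalization with limma and scaling to other endothelial genes, with filled symbols for an adjusted p under 0.05. Kdr, Vegfb and Epas1 lie left of zero and Adm right of it with filled symbols throughout, whereas Cdh5, Tek and Vegfa have open symbols at or near zero with library size alone.

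To compare the angiogenic and hypoxia genes with the endothelial signal, each was divided by the summed counts of the 5 pan-endothelial genes in the same mouse. That sum went from between 503 and 586 CPM in wild-type to between 310 and 401 CPM in KO mice. The log2 ratio of Vegfa to it was -0.69, -0.62 and -0.46 in wild-type mice and -0.65, -0.48 and -0.36 in KO mice, which overlapped (mean difference 0.09). The ratios of Vegfb and Epas1 were lower without overlap, by means of -0.71 and -0.62. Those of Hif1a and Adm were higher without overlap, by 0.88 and 2.33. Because Kdr is part of that sum and itself fell, ratios between single genes were also taken. The ratio of Vegfa to its receptor Kdr was 0.80 ± 0.12 in wild-type and 1.31 ± 0.18 in KO mice (SD, n = 3), with no overlap. That of Vegfb to its receptor Flt1 was 1.30 ± 0.15 and 0.81 ± 0.37, lower in each KO mouse. These ratios are descriptions of the 6 mice and carry no p.

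**Figure D3:**
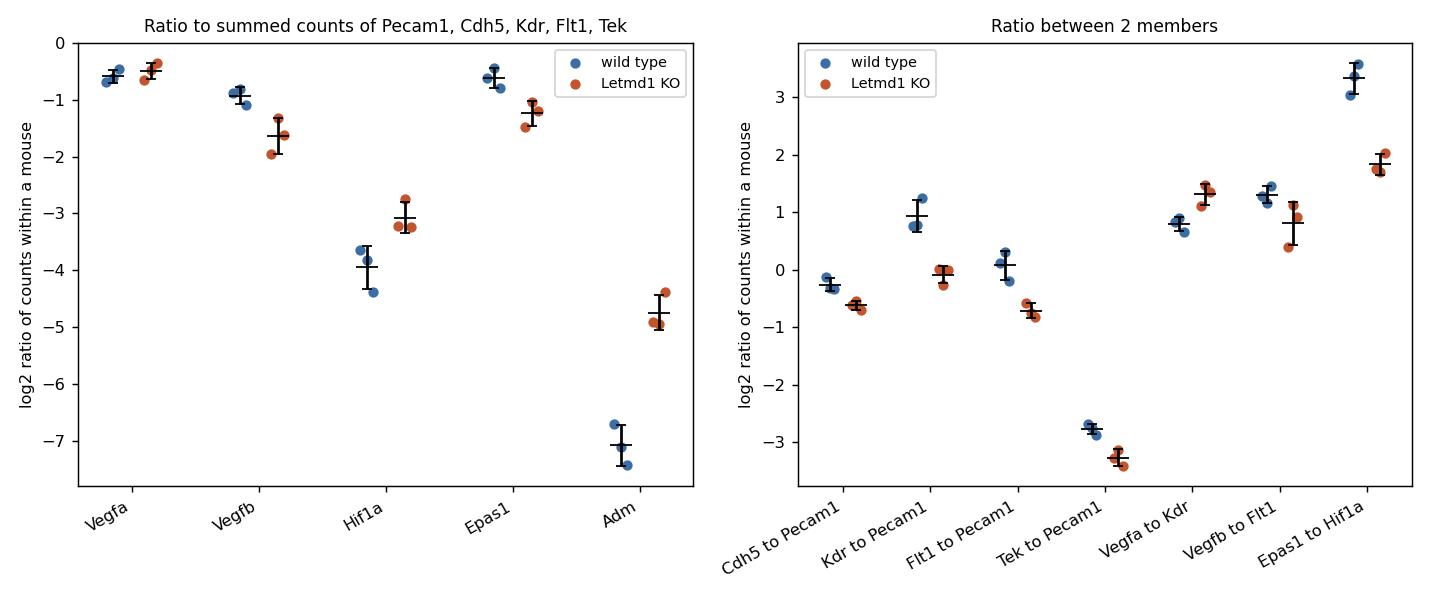
Log2 ratios of counts within a mouse (vertical axis) are plotted with a point for each mouse, a dash for the mean and bars for the SD (n = 3 per genotype), against the summed pan-endothelial genes on the left and between single genes on the right. Vegfa overlaps between the genotypes on the left, where Vegfb and Epas1 are lower and Hif1a and Adm higher in KO mice.

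As another reference, libraries were scaled to 22 further endothelial genes, none of them among the 10. Under that scaling 4 of the 10 were lower (Kdr, Flt1, Vegfb and Epas1), where 16.5% of all genes were, and Adm alone was higher, where 23.1% of all genes were. The log2 fold change of Kdr was -0.94 (adjusted p = 0.00284), and that of Flt1 was -0.71 (adjusted p = 0.00273). Those of Cdh5 (-0.28, adjusted p = 0.153), Tek (-0.41, adjusted p = 0.122) and Vegfa (-0.41, adjusted p = 0.0714) passed no threshold.

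The median over these 22 endothelial genes was -0.12 (log2) against 0.03 for all genes. Of them, 2 were lower and 4 were higher, beside 22.3% and 23.7% of all genes, and 16 did not pass the test. Their summed level was 957 to 1094 CPM in wild-type and 966 to 1112 CPM in KO mice. That sum includes Cd34, whose mean went from 67.1 to 172 CPM and so offset falls of other genes in it. Nos3, the endothelial nitric oxide synthase, fell by 0.85 on the log2 scale (adjusted p = 0.0133), a call lost with library size alone (adjusted p = 0.124) and without KO mouse 3 (adjusted p = 0.0544). Cd34, which marks capillary endothelium and also adipose progenitors, had the largest rise of the list (1.36, adjusted p = 1.87e-05). All 8 fibroblast and progenitor markers rose as well, and the cells behind the rise of Cd34 were not tested. Plvap, of the diaphragms of fenestrated endothelium, and Vwf, of larger vessels and veins, rose by 1.05 and 0.91 and were picked out after their values were seen. The call of Vwf was lost without wild-type mouse 2 or KO mouse 1 or 2 (adjusted p between 0.0526 and 0.0561).

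Of 10 capillary genes for the handling of lipid and fluid, 4 were lower and 1 was higher, beside 22.3% and 23.7% of all genes, with a median of -0.61. Rgcc, a regulator of the cell cycle that is abundant in capillaries of adipose tissue, went from 510, 523 and 291 CPM to 162, 183 and 147 CPM, a log2 fold change of -1.43 (adjusted p = 0.000587). Cldn15 rose by 0.50 (adjusted p = 0.0284), and this call was lost without any of wild-type mice 1 and 2 and KO mice 1 and 2 (adjusted p between 0.0604 and 0.0989). Gpihbp1, which carries lipoprotein lipase to the capillary surface, was at -0.31 on the log2 scale (adjusted p = 0.111) but at 0.11 (adjusted p = 0.583) with library size alone, and was picked out after its value was seen. It passed the test without wild-type mouse 3 (-0.44, adjusted p = 0.0296). With library size alone, 2 genes of this list were lower and 1 was higher, beside 10.5% and 45.4% of all genes.

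**Figure D4:**
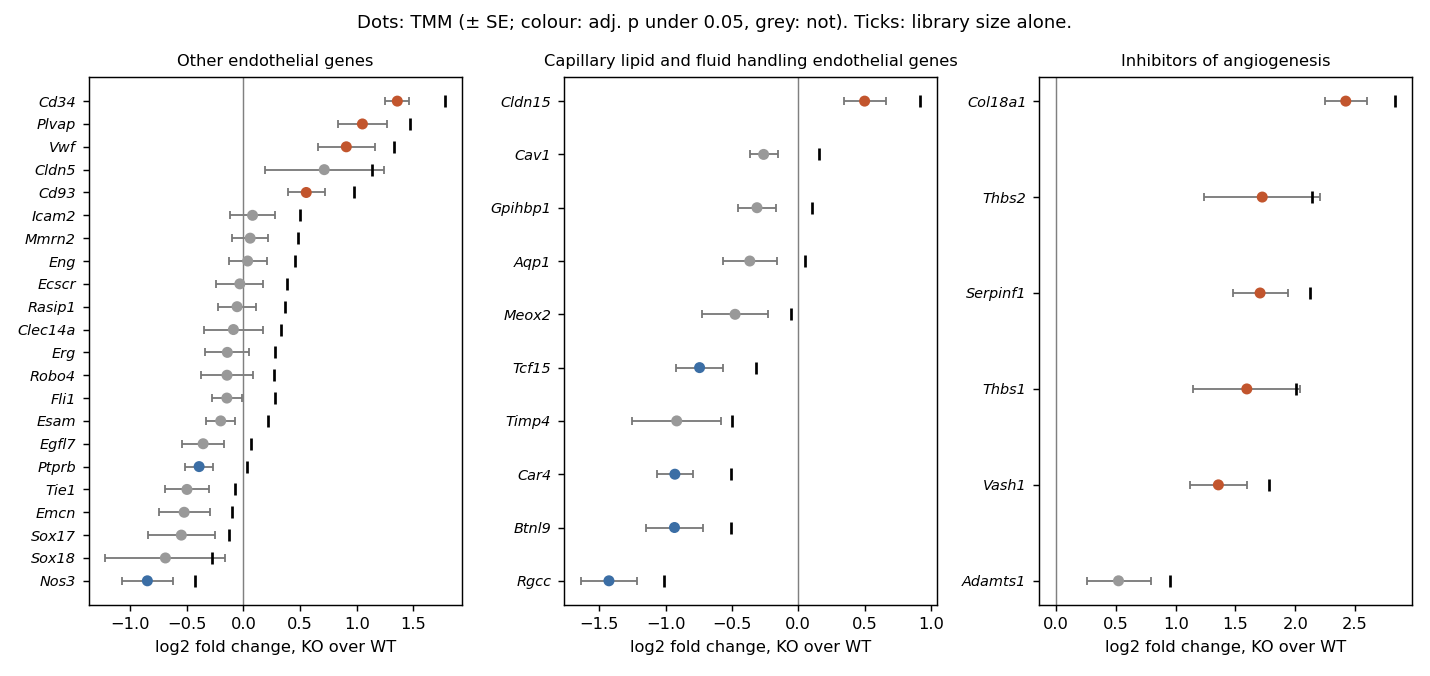
Log2 fold changes of Letmd1 KO over wild type (horizontal axis) are plotted for each tested gene of 3 lists, with dots and SE bars for TMM, colour for an adjusted p under 0.05 and black ticks for library size alone. The 22 other endothelial genes lie on both sides of zero, 4 of the 10 capillary genes are lower, and 5 of the 6 tested inhibitors of angiogenesis are higher.

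Of 12 tested angiogenic ligands (of 14 listed), 3 were lower and 3 were higher, shares close to those of all genes (22.3% and 23.7%), and the median was 0.43. The counts of the shorter lists that follow stand beside the same shares of all genes. Efnb2, the ephrin-B2 of arterial endothelium, fell by 1.43 (adjusted p = 0.0141). Figf, which encodes the lymphangiogenic ligand VEGFD, rose by 1.21 (adjusted p = 0.00351). Angpt1, the ligand of the Tek product, had 36.9, 40.5 and 57.5 CPM in wild-type and 17.6, 18.1 and 21.1 CPM in KO mice, a log2 fold change of -1.24 (adjusted p = 0.000627); it was picked out after its values were seen.

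Among 8 tested VEGF co-receptor and downstream signalling genes, 4 were lower and 2 were higher. Shb, an adaptor that binds KDR, fell by 1.71 (adjusted p = 0.00725), with wild-type levels spread from 18.3 to 74.6 CPM and KO levels of 14.6 to 15.3 CPM. The co-receptors moved in opposite directions. Nrp2 rose by 0.90 (adjusted p = 0.00461), whereas Nrp1, picked out after its values were seen, went from 772, 858 and 797 CPM to 403, 393 and 338 CPM, a log2 fold change of -1.10 (adjusted p = 9.21e-05). Of 8 tested endothelial Notch genes, Heyl alone was called (-0.65, adjusted p = 0.0253), and this call was lost with library size alone (adjusted p = 0.37) and without any of 4 mice (wild-type 1 or 3, KO 2 or 3; adjusted p between 0.0632 and 0.0705).

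Of 5 adrenomedullin receptor genes, 1 was higher, 1 was lower and 3 did not pass the test. Calcrl, the receptor itself, and Ramp2 and Ramp3, the partners that make it bind adrenomedullin, had log2 fold changes of -0.12, 0.05 and 0.10 (adjusted p = 0.611, 0.854 and 0.85) and overlapped between the genotypes. Ackr3, a scavenger receptor that takes up adrenomedullin and CXCL12, had 84.0, 42.5 and 77.7 CPM in wild-type mice and 13.0, 14.8 and 14.4 CPM in KO mice. It fell by 2.27 (SE 0.24, adjusted p = 9.02e-05). Ramp1, the partner for calcitonin gene-related peptide, rose by 1.59 (adjusted p = 0.041) from under 1.4 CPM, a call lost when any mouse other than wild-type mouse 2 was left out (adjusted p between 0.0831 and 0.0963).

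Of 8 tested HIF partner and oxygen-sensing genes, 4 were lower and 1 was higher. Egln3, a prolyl hydroxylase that is itself a HIF target, fell by 3.66 (SE 0.55, adjusted p = 0.000636), from 15.9, 14.2 and 10.6 CPM to 0.33, 2.65 and 0.59 CPM. Egln1, the main prolyl hydroxylase, was picked out after its values were seen and fell by 1.71 (adjusted p = 1.09e-05), from 228, 259 and 291 CPM to 78.8, 76.5 and 81.9 CPM. Cited2, which competes with the HIF proteins for a coactivator, rose by 1.05 (adjusted p = 0.0341), although its ranges overlapped and leaving out wild-type mouse 1 or 2 or KO mouse 2 or 3 ended the call (adjusted p between 0.0515 and 0.109).

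HIF target genes did not move in a single direction. Of 21 tested (23 listed, Egln3 again among them), 10 were lower and 5 were higher, beside 22.3% and 23.7% of all genes. Their median was -0.80. The split with library size alone was 8 lower and 6 higher, beside 10.5% and 45.4% of all genes. Ero1l, an oxidase of the endoplasmic reticulum that is also induced by unfolded protein stress, had the largest rise, from 19.1, 24.4 and 11.9 CPM to 421, 344 and 532 CPM (4.54, SE 0.27, adjusted p = 5.67e-06). Of the listed genes, 8 act in glucose use and were picked out after their values were seen. Hk2, Pfkfb3, Aldoa, Pgk1, Ldha and Pdk1 had log2 fold changes of -2.29, -2.25, -1.49, -1.11, -1.75 and -3.02. The glucose transporter gene Slc2a1 (1.39, adjusted p = 0.00366) and Pfkfb4 (2.13, adjusted p = 0.000185) were higher, as Adm was.

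**Figure D5:**
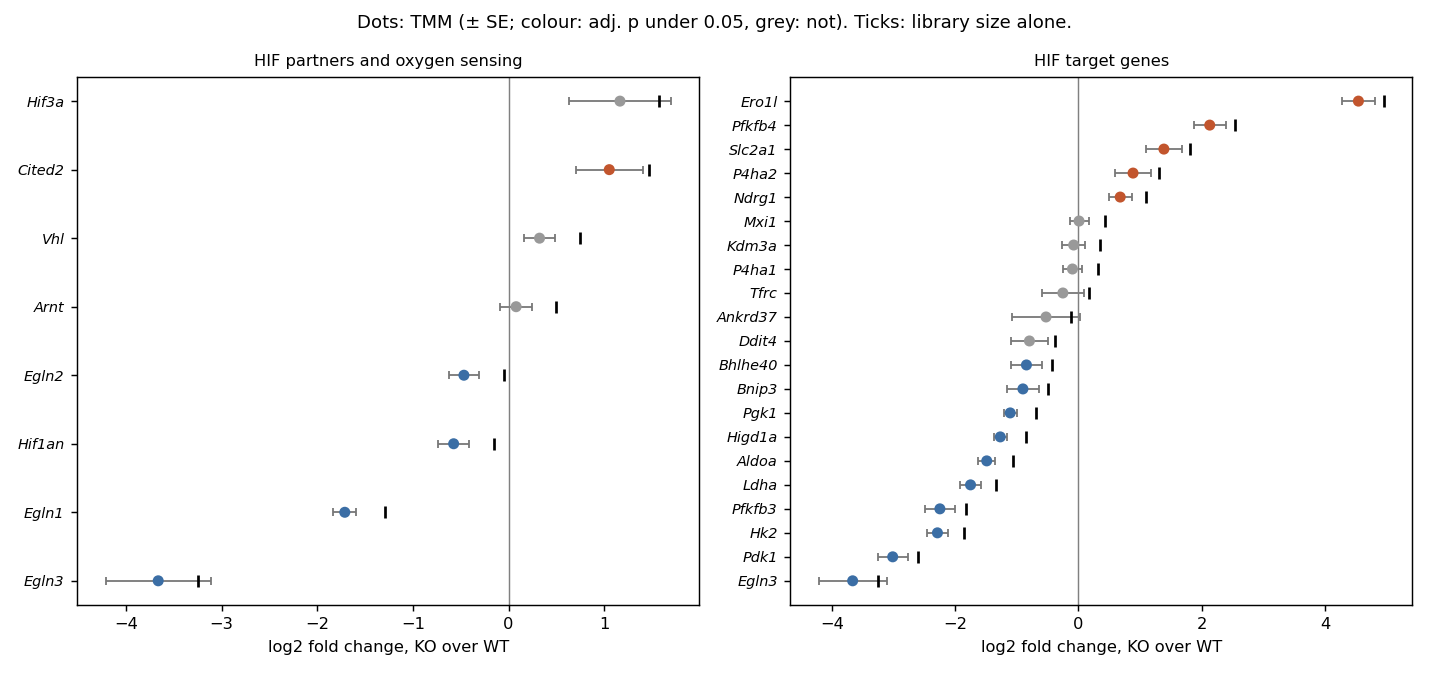
Log2 fold changes of Letmd1 KO over wild type (horizontal axis) are plotted for the tested HIF partner and oxygen-sensing genes on the left and HIF target genes on the right, with dots and SE bars for TMM, colour for an adjusted p under 0.05 and black ticks for library size alone. On the right, 10 genes are lower and 5 are higher, from -3.66 for Egln3 to 4.54 for Ero1l.

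Of 4 genes listed as regulators of Vegfa in brown fat, 2 were lower, 0 were higher and 2 were not called. Ppargc1a and Ppargc1b encode coactivators, and Esrra and Esrrg encode nuclear receptors. Their part in the level of Vegfa was not tested. Ppargc1b fell by 1.08 (adjusted p = 0.000601) and Esrra by 0.43 (adjusted p = 0.00517), although Esrra had -0.02 (adjusted p = 0.908) with library size alone. Ppargc1a and Esrrg had log2 fold changes of -0.52 and -0.50 (adjusted p = 0.0906 and 0.243) and overlapped; both passed the test without wild-type mouse 3 (adjusted p = 0.0467 and 0.0157), and Ppargc1a did with the replicate block (adjusted p = 0.024) and with DESeq2 (adjusted p = 0.0421).

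Of 6 tested inhibitors of angiogenesis, 5 were higher and 0 were lower, with a median of 1.65. Col18a1, the source of endostatin and a basement membrane collagen, went from 8.09, 8.38 and 7.04 CPM to 39.6, 50.7 and 36.6 CPM (2.42, SE 0.17, adjusted p = 1.27e-05). Several of these genes are also made by fibroblasts or macrophages, whose markers were all higher. The part of these cells in the rise was not tested. Without wild-type mouse 2 or KO mouse 2, 3 of the 6 were called, beside 2526 of 13200 and 2769 of 13269 genes higher.

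Of the vessel-associated cells, mural cell markers showed no common direction, with 2 lower and 2 called higher of 10 and sums of 376 to 408 CPM in wild-type and 375 to 404 CPM in KO mice. Rgs5 of pericytes fell by 0.92 (adjusted p = 0.00245), and Acta2 of smooth muscle and myofibroblasts rose by 1.02 (adjusted p = 0.00187). Of 6 lymphatic markers, 4 were tested and 2 were higher, and the sum went from between 48.0 and 61.4 CPM to between 90.9 and 138 CPM. The higher genes were Pdpn (2.15, adjusted p = 0.00141) and Lyve1 (1.07, adjusted p = 0.00126), which are also found on fibroblasts and macrophages, while the lymphatic factor Prox1 had at most 2 counts in any mouse. Lyve1 and Prox1 were picked out after their values were seen.

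Over the 6 mice, the genes with the most similar log2 CPM pattern to Pecam1 were Reln, Hoxb2, Mpzl1, Cdk5r1 and Ctnnbip1, with Pearson correlations between 0.977 and 0.991. For Vegfa they were Atxn2, Vsig2, Polr2f, Gtf3c1 and Bcl7a, between 0.981 and 0.990. These correlations were picked as the highest of all genes tested. The 6 mice cover both genotypes and differ in library size, and Reln had only 9 to 37 counts per mouse.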

How the data were processed

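RNA of BAT from 3 wild-type and 3 Letmd1 KO mice was sequenced with QuantSeq. The authors aligned the reads with Bowtie2 to mm10, counted unique and multiple alignments on genes with bedtools (versions and use of strand not given in the sources used here) and deposited whole-number counts per mouse without normalization. Genes that share sequence may share counts.

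Counts were tested in R 4.3.3 with edgeR 4.0.16 (quasi-likelihood test, TMM scaling, edgeR's default filter at 10 counts, and 15 in total). Benjamini-Hochberg adjusted p-values under 0.05 were called. The files list 23282 rows, of which 12995 entered the test and 5588 were empty in all mice. Alternatives used library size alone, RLE factors, quantile normalization with limma 3.58.1, scaling by the median ratio over 22 endothelial genes, DESeq2 1.42.0, no filter, a mean of at least 50 counts, the replicate block, leaving out each mouse, and leaving out the wild-type and the KO mouse with the most muscle transcripts. The edgeR fit with TMM, the DESeq2 fit and the quantile fit were tested on simulated counts with known changed genes. That simulation held no shift of scale between the genotypes, and the other steps were not tested in this way. A floor of 3 counts equals 0.176 to 0.397 CPM and covers counting error only. Mice of a genotype all differed beyond counting noise (chi-square over its degrees of freedom, 11.5 to 34.0). Correlations over mice used log2 CPM. Promoters came from RefSeq tables for GRCm38.p6 and gene overlaps from GENCODE vM21 on GRCm38; for Pecam1, Cdh5 and Epas1 no promoter is shown.

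The 10 genes and all lists were chosen with earlier results of these data known. Named are the 10 genes, Letmd1, the called gene with the most positive and the most negative change of each list, all genes of lists of at most 5, and the genes most like Pecam1 and Vegfa; other names are marked as picked after their values were seen. The smallest p of an exact test with 3 mice per genotype is 0.1, so none was run.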

Additional observations from a re-analysis of the deposited data

How the results depend on the processing

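Library size alone changed most. It gave 1368 genes lower and 5899 higher among all tested, 3 of the 10 genes lower and 3 higher, 0 other endothelial genes lower, 2 capillary genes lower, and 2 oxygen-sensing genes lower and 4 higher, and it turned Cdh5 (0.083), Calcrl (0.30), Gpihbp1 (0.11) and Ptprb (0.029; an endothelial phosphatase gene at -0.39 with TMM, picked out after its value was seen). Scaling to the 22 other endothelial genes left 4 of the 10 lower and 1 of those 22 lower. Since the 22 genes set that scale, their own count under it is largely fixed and shows nothing further about them. Quantile normalization gave 5 of the 10 genes lower, beside 3078 of all 12995 genes. It also gave 1 other endothelial gene lower, 0 capillary genes higher and 3 inhibitors higher, beside 2713 of all genes higher. It turned Ramp3 (-0.40). DESeq2 and the fit with no filter each gave 6 of the 10 genes lower, beside 2905 of 12995 and 2895 of 17694 genes. With no filter 2 oxygen-sensing genes were higher, beside 3165 of all genes. With a mean of at least 50 counts 3 inhibitors were higher, beside 2584 of 10328 genes. Without wild-type mouse 2 and KO mouse 3, the mice richest in muscle transcripts, 1912 genes were lower and 1977 higher, with 1 other endothelial gene lower, 0 capillary genes higher, and 2 oxygen-sensing genes lower and 0 higher; Pecam1 was -0.041 and Calcrl 0.011, and the calls of Figf, Nrp2 and Shb were lost (adjusted p = 0.0559, 0.069 and 0.0601). Fewer samples entered that fit. Beyond this and the change of scale itself, the cause was not tested.

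Leaving out each mouse in turn gave 4 to 6 of the 10 genes lower, 1 to 3 other endothelial genes lower and 2 to 5 higher, 0 to 1 capillary genes higher, 2 to 4 oxygen-sensing genes lower and 0 to 1 higher, 3 to 5 HIF targets higher and 3 to 6 inhibitors higher. Among all genes, the same fits called 2348 to 2869 lower and 2494 to 2999 higher, of 13064 to 13416 tested. Pecam1 ranged from -0.019 to 0.11, Ramp2 from -0.17 to 0.20 and Ramp3 from -0.14 to 0.36. Kdr, Flt1, Vegfb, Epas1 and Adm were called in every such fit.

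The replicate numbers, taken from the sample titles, gave no sign of pairing the mice. Correlations of deviations were 0.07, -0.11 and -0.09 for equal numbers and -0.09 to 0.19 for unequal numbers. With 3 mice per genotype, such values cannot exclude a pairing. With the replicate block 6 of the 10 genes were lower, beside 2713 of all 12995 genes, and Tek had -0.48 (adjusted p = 0.0617).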
